A study of Mus musculus with 16 samples.

Results

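The Hox genes are the 39 clustered homeobox genes of the mouse, chosen here by symbol: every gene of the deposited tables whose NCBI Gene identifier maps to Hoxa, Hoxb, Hoxc or Hoxd followed by a number. They were 39 of the 36528 gene identifiers measured, 11 in the Hoxa cluster (chromosome 6, 105.5 kb), 10 in Hoxb (chromosome 11, 96194316 to 96368254, 173.9 kb), 9 in Hoxc (chromosome 15, 102921131 to 103036856, 115.7 kb) and 9 in Hoxd (chromosome 2, 74668225 to 74765142, 96.9 kb; all GRCm38, RefSeq annotation). No expression value entered the choice. In AKVPSL tumour cells, most Hoxa genes lay far below their level in AKVPL tumour cells and Hoxb genes lay above it (7 of 9 tested in GFP+ cells, 4 of 9 in GFP- cells), while the Hoxc and Hoxd genes were low throughout and lower in GFP+ than in GFP- cells of both genotypes.

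Hox proteins are transcription factors that bind DNA through the homeodomain, a conserved helical fold. In the embryo they give cells their position along the head-to-tail axis: genes at one end of each cluster (low paralog numbers) act anteriorly, genes at the other end (high numbers) act posteriorly, and the order on the chromosome follows the order along the body. Genes with the same number in different clusters are paralogs, copies from ancient duplications of the whole cluster. In the gut, cells of the endoderm and the surrounding mesoderm keep regional Hox patterns into adult life, and chromatin regulators of the Polycomb and MLL (Trithorax) groups hold the clusters silent or active.

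The samples were mouse intestinal tumour cells sorted by fluorescence into GFP+ and GFP- fractions, described by the series as Lgr5+ and Lgr5- cells, so that GFP stands for Lgr5, a receptor of intestinal stem cells. Tumours were of 2 genotypes, labelled AKVPL and AKVPSL, and each of the 4 combinations of genotype and fraction had 4 libraries. The labels do not say which alleles the letters stand for; 5 letters are common to both names, and AKVPSL has an added S. Nor do they give the strain, age, treatment, driver of any Cre, the number of tumours, lines or animals behind each genotype, or any sort gate other than GFP, so the genotype and the line or tumour of origin cannot be told apart. Nothing says that the 4 libraries of a group came from separate animals, so every p-value refers to the spread among these libraries alone. All 16 titles name the colon, whereas the tissue field reads small intestine in 15 libraries and colon in 1 (AKVPSL GFP- replicate 1).

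Libraries held 10.9 to 41.6 M counted reads (M, 1e6), with a median of 25.9 M. Lgr5 was at 247 to 345 CPM (counts per 1e6 counted reads) in the 8 GFP+ libraries and at 48.3 to 89.7 CPM in the 8 GFP- libraries, with no overlap. No label names a targeted gene that could check the genotypes. Smad4, which shares its initial with the added letter, was at 150 to 283 CPM in the libraries labelled AKVPSL and 126 to 159 CPM in those labelled AKVPL, and a count over the whole gene does not check the loss of part of it. The 20 epithelial markers summed to 11096 to 16083 CPM in every group, with Epcam, Cdh1 and Krt18 high, so the cells carried the epithelial programme. Markers of both gut regions were at or near 0 in all groups: Car1, Aqp4 and Slc26a3 of the colon had 15, 11 and 7 counts in all 16 libraries together, and Sis, Fabp6 and Apoa4 of the small intestine had 9, 17 and 29. Other cell types moved with the sort: 15 fibroblast markers summed to a median of 6977 CPM in AKVPL GFP- and 852 CPM in AKVPL GFP+, and to 2267 CPM in AKVPSL GFP- and 472 CPM in AKVPSL GFP+. Leukocyte markers (14 genes) summed to medians of 3860, 334, 827 and 87.3 CPM in the same order.

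Because paralogs resemble each other most in the homeobox, reads could in principle be exchanged between clusters. Over whole transcripts, only 4 of the 39 genes (Hoxa6, Hoxb4, Hoxb9 and Hoxc9) shared any stretch of 50 bases with a Hox gene of another cluster, at most 0.364% of the stretches of a gene (Hoxa6). Overlaps within a cluster are larger. Hoxc5 and Hoxc10 shared 119 such stretches, Hoxd3 and Hoxd4 shared 339, and 51.4% of the stretches of Hoxb3, 33% of those of Hoxa11, 25.9% of those of Hoxb2, 21.7% of those of Hoxa3 and 18.7% of those of Hoxa7 were also in an antisense transcript, as were 13.3% or less of those of any other member. Hoxd3 and Hoxd4 also shared 52.1% and 35.4% of theirs with genes outside the family. No source used here states whether reads were counted by strand, so the counts of these genes are uncertain to that extent.

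Per length, Hox expression was led by different clusters in the 2 genotypes. The deposited values are reads per kilobase of gene model, scaled for depth (RPKM), which allow levels of different genes to be compared. The 11 Hoxa genes summed to 53.8 ± 10.1 RPKM (SD, n = 4) in AKVPL GFP- and 53.3 ± 13.3 in AKVPL GFP+, against 8.56 ± 0.931 in AKVPSL GFP- and 7.06 ± 1.73 in AKVPSL GFP+. That was 78.8% and 88.3% of all Hox RPKM in AKVPL, and 25.6% and 16.9% in AKVPSL. The 10 Hoxb genes went the other way, with 8.95 ± 1.76 and 6.37 ± 0.852 RPKM in AKVPL GFP- and GFP+ and 22.4 ± 1.44 and 34.1 ± 3.71 RPKM in AKVPSL. Hoxa9 (13.7 ± 2.55 RPKM in GFP- and 15.4 ± 4.44 in GFP+) and Hoxa10 (11.4 ± 2.59 and 14.2 ± 3.82) led in AKVPL, and their ranges overlapped. Hoxb6 led in AKVPSL (11.2 ± 1.28 RPKM in GFP- and 13.9 ± 2.34 in GFP+). The next gene there was Hoxb9 in GFP+ cells, at 8.35 ± 1.45 RPKM and below the range of Hoxb6, whereas in GFP- cells Hoxb4 (2.99 ± 0.290), Hoxb5 (2.60 ± 0.519) and Hoxb9 (2.51 ± 0.462) were within their spread of each other. Posterior genes (groups 9 to 13) made up 41.8% and 52.6% of Hox RPKM in AKVPL GFP- and GFP+, and 18.6% and 30.2% in AKVPSL.

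**Figure D1:**
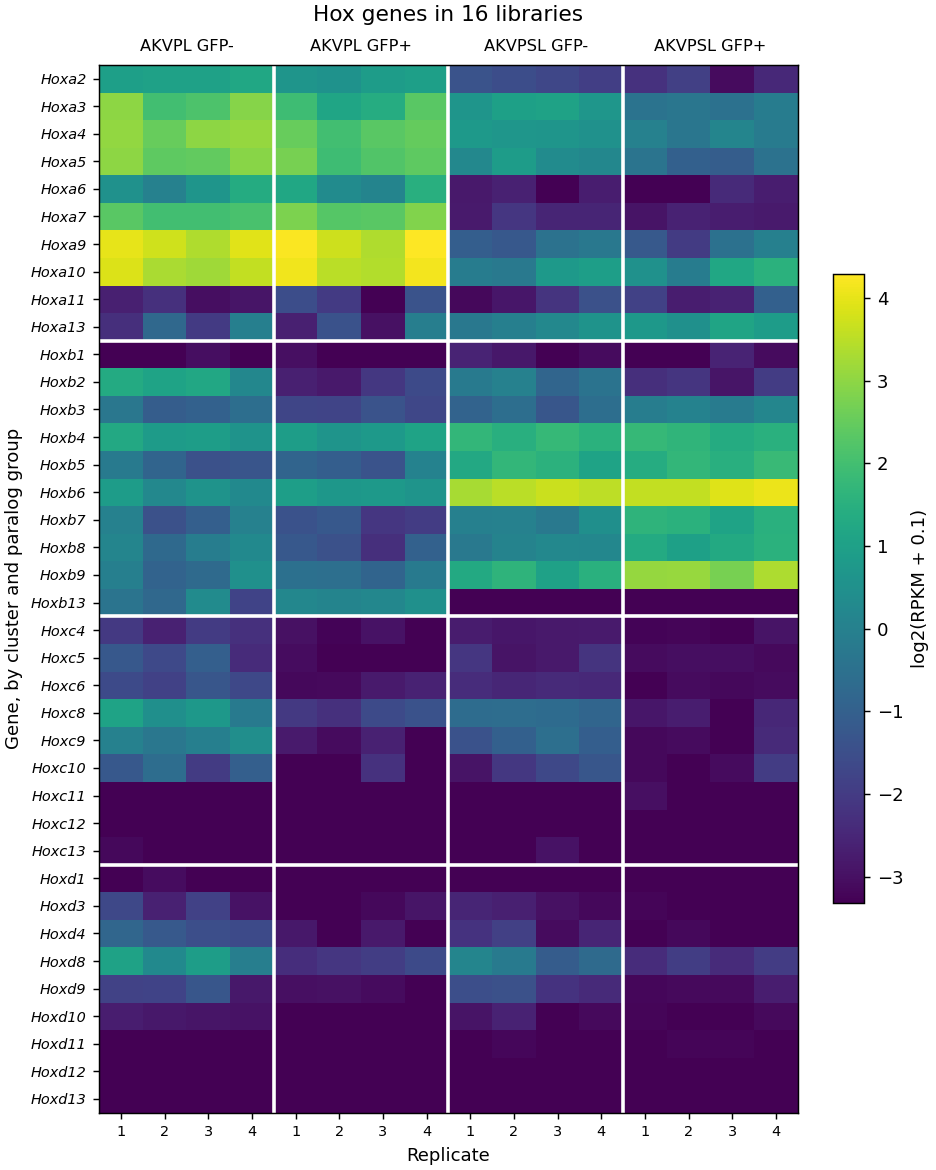
Deposited RPKM of Hox genes (rows, by cluster and paralog group) in the 16 libraries (columns, replicates 1 to 4 of each group), coloured as log2(RPKM + 0.1). Hoxa9 and Hoxa10 are brightest in all 8 AKVPL libraries and Hoxb6 in all 8 AKVPSL libraries, while Hoxc and Hoxd rows are darker in GFP+ than in GFP- columns.

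Of the 39 genes, 28 had enough counts for a test: all 11 Hoxa genes, 9 of 10 Hoxb, 5 of 9 Hoxc and 3 of 9 Hoxd. Hoxb1, Hoxc4, Hoxc11, Hoxc12, Hoxc13, Hoxd1, Hoxd3, Hoxd10, Hoxd11, Hoxd12 and Hoxd13 did not pass the filter. Hoxc12, Hoxd12 and Hoxd13 had no count in any library, Hoxc11, Hoxc13, Hoxd1 and Hoxd11 had 1 to 3 counts in all, and Hoxc4 (87 counts), Hoxd3 (53), Hoxd10 (20) and Hoxb1 (17) were detected at low level. A gene with 0 counts could still hold the 3 counts in a library that counting error allows. Tests below are edgeR quasi-likelihood F tests over 18072 genes with Benjamini-Hochberg adjustment, two-sided, with adjusted p under 0.05 as the threshold, and fold changes are log2 of CPM ratios with their SE.

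The comparison of AKVPSL with AKVPL in GFP+ cells asks what differs between the genotypes in the Lgr5-expressing fraction. Of the 28 tested Hox genes 8 rose and 11 fell in AKVPSL, against 24.9% of all 18072 genes that rose and 28.1% that fell (53.0% in either direction). All 4 AKVPSL libraries lay above all 4 AKVPL libraries in 8 Hox genes and below them in 10, against 25.0% and 26.3% of all genes. The split followed the clusters: Hoxa had 1 gene higher and 8 lower of 11, Hoxb had 7 higher and 1 lower of 9, Hoxc had 0 higher and 2 lower of 5, and no Hoxd gene of 3 passed. The median log2 fold change was -3.00 over the Hoxa genes and 2.57 over the Hoxb genes, beside -0.15 over all 28 and -0.05 over all genes tested. None of these medians changed with Hoxb13 set at its bound, but that over all 28 ran from -1.28 (without AKVPSL GFP+ replicate 4) to -0.02 (without AKVPSL GFP+ replicate 1). In GFP- cells 5 Hox genes rose and 16 fell, against 32.0% and 30.7% of all genes (62.7% in either direction), and the libraries of the genotypes were apart in 5 and 14, against 27.3% and 25.9%. There Hoxa had 1 higher and 8 lower, Hoxb 4 higher and 2 lower, Hoxc 0 higher and 4 lower of 5, and Hoxd 0 higher and 2 lower of 3. The medians in GFP- were -2.28 for Hoxa, 0.75 for Hoxb, -1.20 for all 28 and 0.00 for all genes. Of 15 fibroblast markers 11 fell with the genotype in GFP- cells, and 1 rose and 2 fell in GFP+ cells. Smooth muscle markers fell for 7 of 7 in GFP- and 2 of 7 in GFP+, and leukocyte markers for 6 and 9 of 12 tested. Endothelial markers fell for 3 of 10 in each, with 1 and 2 higher. Their part in the Hox differences was not tested.

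**Figure D2:**
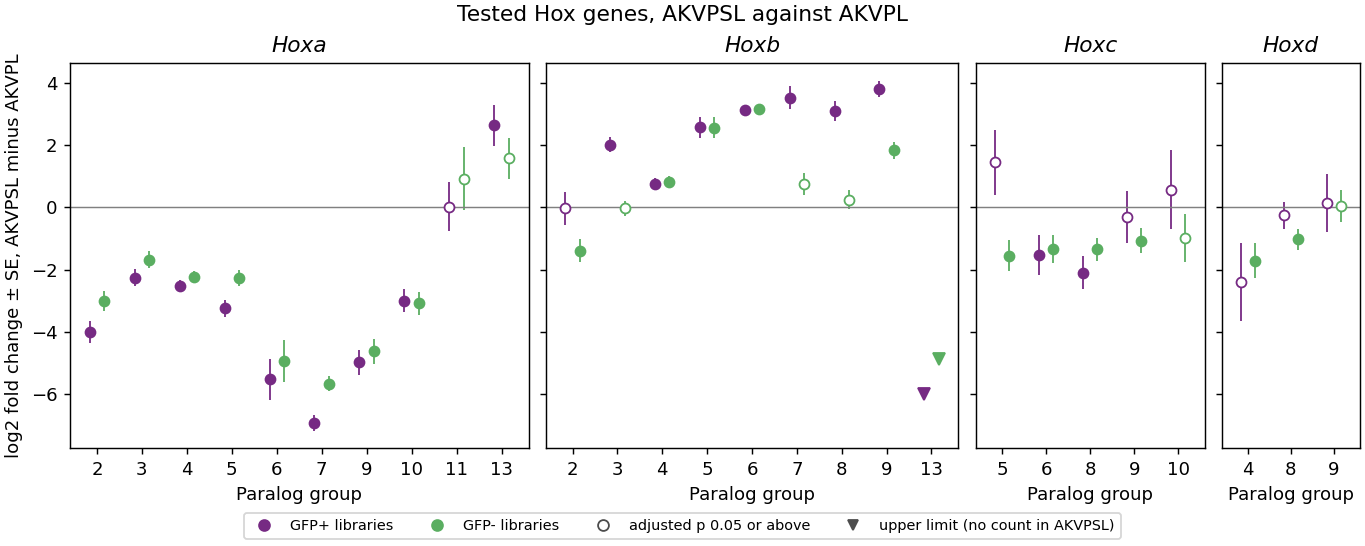
Log2 fold change ± SE (edgeR, AKVPSL minus AKVPL) of tested Hox genes by cluster and paralog group, in GFP+ (purple) and GFP- (green) libraries; open circles did not pass an adjusted p of 0.05, and triangles are upper limits for Hoxb13, which had no count in AKVPSL. Hoxa2 to Hoxa10 lie between -6.92 and -1.68 in both fractions, and Hoxb4 to Hoxb6 and Hoxb9 lie above 0 in both.

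Hoxa7, a central gene of the trunk, was the Hox gene with the largest measured fall. It was at 43.1, 29.9, 30.7 and 43.9 CPM in AKVPL GFP+ replicates 1 to 4 and at 0.198, 0.402, 0.333 and 0.288 CPM in AKVPSL GFP+. All 4 AKVPSL libraries were close together and far below every AKVPL library, with a log2 fold change of -6.92 ± 0.26 (121-fold lower, adjusted p = 2.84e-13). In GFP- cells the fall was -5.66 ± 0.25 (adjusted p = 2.75e-12).

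Hoxa9, a posterior gene known for its role in leukaemia and blood stem cells, had the highest mean RPKM of the Hox genes in both AKVPL fractions. Its range overlapped that of Hoxa10 there. Hoxa9 read 67.9, 45.8, 36.5 and 68.5 CPM in AKVPL GFP+ and 1.21, 0.536, 2.20 and 3.16 CPM in AKVPSL GFP+. The groups did not overlap, and the log2 fold change was -4.98 ± 0.41 (adjusted p = 1.01e-07). GFP- cells showed the same order, with 53.1, 43.7, 34.2 and 50.4 CPM in AKVPL, 1.34, 1.14, 2.26 and 2.58 CPM in AKVPSL, and a log2 fold change of -4.63 ± 0.41.

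Hoxa10, its posterior neighbour and a regulator of uterine and limb development, fell less. It was at 60.9, 38.8, 36.2 and 60.8 CPM in AKVPL GFP+ and at 4.63, 2.81, 7.69 and 9.65 CPM in AKVPSL GFP+, so that some expression remained in every AKVPSL library. The log2 fold change was -3.00 ± 0.37 in GFP+ and -3.09 ± 0.38 in GFP- cells. In AKVPSL the mean of Hoxa10 exceeded that of Hoxa9 per length in both fractions, at 1.79 ± 0.887 against 0.501 ± 0.324 RPKM in GFP+ and 1.25 ± 0.555 against 0.517 ± 0.195 RPKM in GFP-.

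The anterior and central Hoxa genes fell with them. Hoxa2, which patterns the hindbrain and branchial arches, fell by 4.00 ± 0.35 in GFP+ (adjusted p = 1.71e-08) and 3.02 ± 0.32 in GFP- on the log2 scale. Hoxa5, which acts in lung and gut mesenchyme, fell by 3.25 ± 0.26 in GFP+ (adjusted p = 6.04e-09) and 2.28 ± 0.25 in GFP-. Hoxa3 and Hoxa4, cervical and thoracic patterning genes, fell by 1.68 to 2.54 across the 2 fractions. Hoxa6 had 3 counts in AKVPSL GFP+ against 145 in AKVPL GFP+, a 54.3-fold ratio after TMM scaling of library sizes (95% exact counting interval 18.2 to 267), and 3 against 88 in GFP- (33.0-fold, 10.9 to 163). These intervals cover counting error only.

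The Hoxa cluster did not fall as a whole. Hoxa11 had 139 counts in all and did not pass in either fraction. Hoxa13, the most posterior gene and needed for hindgut and limb development, rose in GFP+ cells, from 0.0862, 0.402, 0.0390 and 1.22 CPM to 2.28, 1.91, 3.00 and 2.51 CPM. No AKVPSL value reached down to the highest AKVPL value, although the AKVPL replicates spread widely, and the log2 fold change was 2.63 ± 0.65 (adjusted p = 0.00278). In GFP- cells it was 1.57 ± 0.67 and did not pass (adjusted p = 0.0505). With the replicate number as a block the adjusted p was 0.0185, but no label pairs libraries across the genotypes.

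In the Hoxb cluster the largest rise was that of Hoxb9, a posterior paralog of Hoxa9. Hoxb9 was at 1.81, 1.76, 1.33 and 2.27 CPM in AKVPL GFP+ and at 24.9, 25.1, 19.3 and 29.9 CPM in AKVPSL GFP+. The groups were far apart (log2 fold change 3.80 ± 0.27, adjusted p = 1.57e-09). In GFP- cells it rose by less, from 2.41, 1.21, 1.45 and 3.64 CPM to 6.91, 8.87, 5.80 and 8.18 CPM (1.83 ± 0.27).

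Hoxb6, a trunk gene at the centre of the cluster, was the most abundant Hox gene of AKVPSL cells in both fractions. It read 3.42, 2.87, 2.97 and 2.66 CPM in AKVPL GFP+ and 22.2, 22.4, 27.9 and 31.1 CPM in AKVPSL GFP+. It rose by nearly the same amount in both fractions, with 3.11 ± 0.17 in GFP+ (adjusted p = 3.95e-11) and 3.15 ± 0.18 in GFP- (adjusted p = 6.96e-11). Hoxb5, which acts in gut mesoderm and enteric neurons, also rose alike, by 2.57 ± 0.33 and 2.56 ± 0.34. Hoxb4, known as a factor that expands blood stem cells, rose by 0.76 ± 0.17 and 0.82 ± 0.17.

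Hoxb3, Hoxb7 and Hoxb8 rose in GFP+ cells. Hoxb7, a trunk gene, read 0.690, 0.803, 0.312 and 0.388 CPM in AKVPL GFP+ and 7.38, 6.93, 5.03 and 6.82 CPM in AKVPSL GFP+ (3.52 ± 0.37, adjusted p = 2.25e-07). Hoxb8, which acts in the trunk and in myeloid cells, rose by 3.09 ± 0.32 (adjusted p = 1.73e-07) and Hoxb3, a hindbrain gene, by 2.01 ± 0.24 (adjusted p = 1.28e-06). In GFP- cells none of the 3 passed, with log2 differences of 0.75 ± 0.35 for Hoxb7 (adjusted p = 0.0692), 0.25 ± 0.30 for Hoxb8 and -0.03 ± 0.24 for Hoxb3. For Hoxb7 the adjusted p was 0.0379 with the block, with the same limit as for Hoxa13. The difference between the fractions is tested below with the sort.

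At the posterior end of the cluster, Hoxb13 went against its neighbours. Hoxb13 lies apart from the rest of Hoxb and marks the hindgut and prostate. It had 53, 46, 38 and 34 counts in AKVPL GFP+ libraries and 25, 18, 33 and 3 in AKVPL GFP- libraries, and 0 counts in all 8 AKVPSL libraries. Against the 3 counts over a group that a count of 0 allows, it was at least 64.1-fold lower in GFP+ (adjusted p = 2.94e-06) and at least 29.6-fold lower in GFP- (adjusted p = 2.00e-05). Hoxb2, an anterior hindbrain gene, fell in GFP- cells (-1.40 ± 0.37, adjusted p = 0.00288) and was at 0.338 ± 0.247 and 0.304 ± 0.150 CPM in AKVPL and AKVPSL GFP+ cells.

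**Figure D3:**
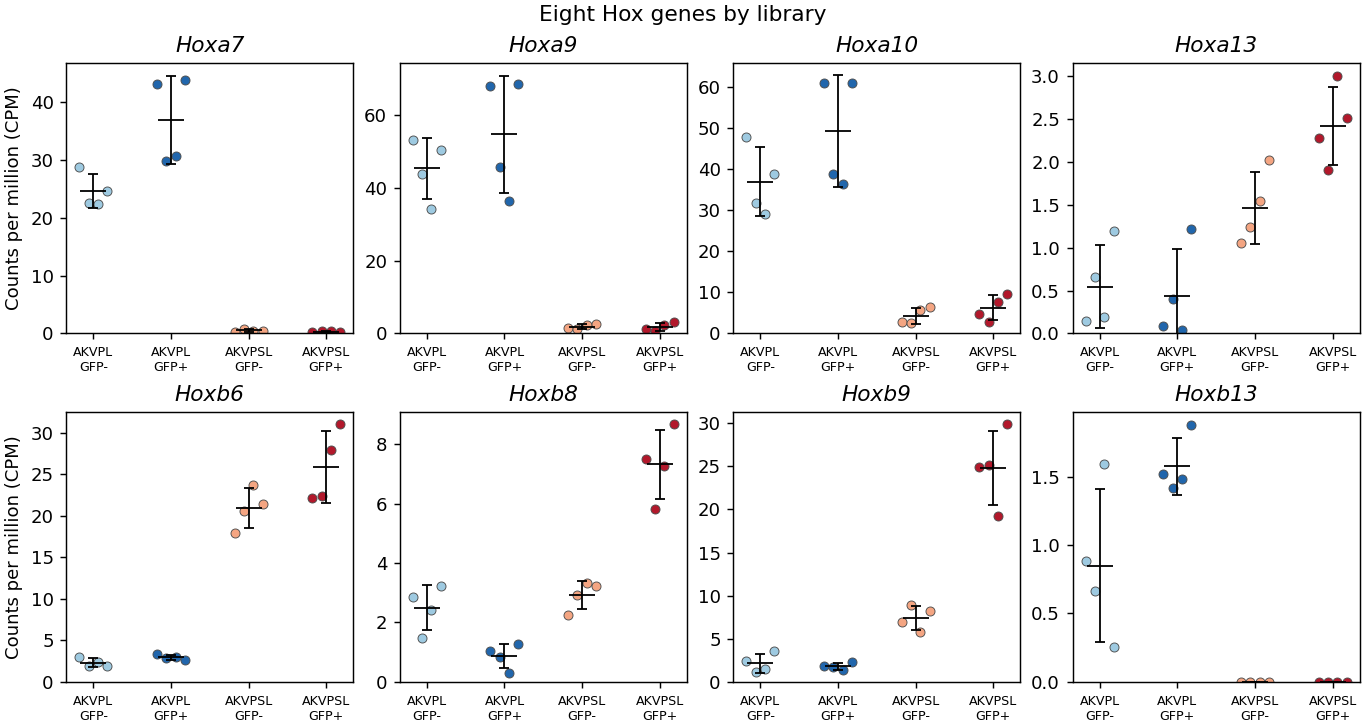
CPM of 8 Hox genes in each library (points), with the mean and SD of each group of 4 (black). Hoxa7, Hoxa9 and Hoxa10 are high in the 8 AKVPL libraries. Hoxb8 and Hoxb9 peak in AKVPSL GFP+ libraries, and Hoxb6 is high in both AKVPSL fractions, which overlap. Hoxb13 is at 0 in all 8 AKVPSL libraries.

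Libraries with the same replicate number resembled each other in some members. Hoxa9 and Hoxa10 were higher in AKVPL replicates 1 and 4 than in 2 and 3 in GFP+ cells, and Hoxa13 was at 0.662 and 1.19 CPM in AKVPL GFP- replicates 2 and 4 against 0.142 and 0.193 CPM in replicates 1 and 3. In AKVPSL, Hoxa10 was highest in replicates 3 and 4 of both fractions. The genotype differences of Hoxa9 and Hoxa10 were larger than this spread.

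Of the other genes inside the clusters, 23 were in the tables and 8 were tested. Between genotypes in GFP+ cells 2 rose and 5 fell, against 24.9% and 28.1% of all genes. Mira, a long noncoding RNA between Hoxa6 and Hoxa7 that is also called Mistral, was at 16.5, 10.6, 11.1 and 17.6 CPM in AKVPL GFP+ and at 0, 0.0669, 0.0999 and 0.0411 CPM in AKVPSL GFP+. It moved with Hoxa7, next to it (log2 fold change -8.03 ± 0.43, adjusted p = 2.88e-11). Gm30134 and Gm11538, noncoding RNAs next to Hoxb13, were at 11.4 to 15.5 and 4.10 to 9.20 CPM in AKVPL GFP+ and had counts in 1 of the 4 AKVPSL GFP+ libraries, replicate 4. Hoxb5os, antisense to Hoxb5, and Hoxb3os, antisense to Hoxb2 and Hoxb3, rose by 3.03 and 2.30 in GFP+ cells. In GFP- cells Hoxb5os rose by 2.07 and Hoxb3os did not pass (-0.44, adjusted p = 0.420). The 24 tested genes flanking the clusters, 3 on each side, ranged from -0.94 to 3.73 in GFP+ cells. Of these, 10 were higher and 3 lower, beside the same shares of all genes, and Gm4544, Hottip and Evx1 rose by over 2.

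Beyond the clusters, Cdx2 stood with the Hoxb genes. Cdx2 is the caudal homeobox factor of intestinal epithelium and a known regulator of Hox genes. It was at 1.35, 1.89, 1.29 and 1.38 CPM in AKVPL GFP+ and at 42.6, 39.8, 31.6 and 46.6 CPM in AKVPSL GFP+ (4.75 ± 0.28, adjusted p = 2.59e-10), and it rose by 3.90 ± 0.28 in GFP-. Pdx1, a ParaHox factor of duodenum and pancreas, rose by 2.33 and 2.81, and the other 4 genes of the caudal and ParaHox list (Cdx1, Cdx4, Gsx1 and Gsx2) were not tested. Of the region genes, 4 of the 6 tested genes of the small intestine fell in GFP+, among them Slc10a2, the ileal bile acid transporter (-4.08 ± 0.32), and Onecut2 (-1.97 ± 0.19). In GFP- cells 3 fell and 2 rose (Apoa1 by 2.84 and Fabp2 by 2.68). Both tested genes of the colon list fell in both fractions. Of all genes, 24.9% rose and 28.1% fell in GFP+ cells, and 32.0% and 30.7% in GFP- cells.

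The partners and regulators of Hox genes changed in both directions, as did all genes. The shares over all genes were 24.9% higher and 28.1% lower in GFP+ cells, and 32.0% and 30.7% in GFP- cells. Whether the lists below differ from these shares was not tested. Of the 9 TALE cofactors, homeodomain proteins that bind DNA together with Hox proteins, 4 rose and 2 fell in GFP+ cells, and Meis3 fell most (-4.50 ± 0.25), from 21.3 to 24.3 CPM in AKVPL GFP+ to 0.743 to 1.30 CPM in AKVPSL GFP+. Pbx3 rose by 1.05 and Meis1 by 0.98. Of 22 Polycomb genes, which silence Hox clusters, 11 rose and 4 fell in GFP+ and 10 rose and 6 fell in GFP-, with medians of 0.15 and 0.16; Phf19 (1.51), Cbx7 (1.37) and Bmi1 (1.12) rose most, and Jarid2 fell by 0.62. Of 11 genes of the MLL complexes and H3K27 demethylases, which keep the clusters active, 3 rose and 2 fell in GFP+, none by more than 0.50, and 4 rose and 4 fell in GFP-, where Dpy30 rose by 1.06 and Kdm6a fell by 1.02. Of 16 tested genes of retinoic acid, the signal that opens Hox clusters from the anterior end, 5 rose and 5 fell in GFP+; of the enzymes that make retinoic acid, Aldh1a1 rose by 2.57 ± 0.12 and Aldh1a3 by 2.10 ± 0.26 while Aldh1a2 fell by 3.37 ± 0.51, and Cyp26a1, which degrades it, fell by 2.71 ± 0.51.

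The upstream sequences of Hoxa7 and Hoxb8 are given because these neighbours in paralog number moved in opposite directions and Hoxb8 holds letters of a caudal motif. RefSeq start sites on GRCm38.p6 were at hand for 22 of the 39 Hox genes (24 windows), each with the 250 bases before the start. Both strands were searched for TTTATNG, a core bound by Cdx proteins, TATAAA, the TATA element, and TGATTNAT, a joint Hox and Pbx element. Capitals mark matches, and TATAAA on one strand overlaps TTTATNG on the other where the letters are TTTATAG. The Hoxa7 window is chr6:52218574-52218823 (minus strand) and that of Hoxb8 is chr11:96281655-96281904 (plus strand).
Hoxa7: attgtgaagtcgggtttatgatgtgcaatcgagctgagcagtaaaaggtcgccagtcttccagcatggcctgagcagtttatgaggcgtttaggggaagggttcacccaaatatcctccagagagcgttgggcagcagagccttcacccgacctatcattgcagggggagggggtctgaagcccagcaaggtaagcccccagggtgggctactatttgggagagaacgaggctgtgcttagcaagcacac
Hoxb8: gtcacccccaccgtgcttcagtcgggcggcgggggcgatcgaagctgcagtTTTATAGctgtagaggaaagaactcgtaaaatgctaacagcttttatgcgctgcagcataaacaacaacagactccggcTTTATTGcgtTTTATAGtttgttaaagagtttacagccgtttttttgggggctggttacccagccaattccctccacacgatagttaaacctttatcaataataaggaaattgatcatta
Hoxb8 held 3 matches to TTTATNG, which begin 199, 120 and 110 bases before the start, and Hoxa7 held no match to any of the 3 motifs. The shorter run TTTATG, unmarked where the last G of the pattern is missing, is in both windows. The difference between the windows therefore depends on the pattern searched. TTTATNG was in 2 of the 24 Hox windows (Hoxb8 and Hoxd4) and in 9.81% of all 32851 windows of the same length. Hoxd4 did not rise in AKVPSL in either fraction. Hoxb4, which rose, had no match, and Hoxb3, Hoxb5, Hoxb6, Hoxb7 and Hoxb9 had no window. TATAAA was in 4 Hox windows and 12.4% of all, and TGATTNAT in 2 and 2.82%. Hox windows had a median of 12.5 CpG and 58.6% G and C, against 6 CpG and 52.4% over all windows. A match is a run of letters, with no binding measured here.

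MicroRNAs of the miR-196 family lie inside the Hoxa, Hoxb and Hoxc clusters and are known to pair with the Hoxb8 messenger RNA, and they are shown for that link within the family. Their mature sequences from RefSeq (GRCm38.p6) share a seed, bases 2 to 8, in capitals. In the last line the stretch of Hoxb8 after the stop codon is given, with capitals where it is complementary to miR-196a-5p.
miR-196a-5p: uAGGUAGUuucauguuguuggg
miR-196b-5p: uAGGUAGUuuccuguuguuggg
Hoxb8: CCCAACAACATGAAACTgCCTA
The Hoxb8 stretch paired with 21 of 22 bases of miR-196a-5p and 20 of 22 bases of miR-196b-5p, and no other Hox transcript paired with more than 15. Mature microRNAs were not analysed here. The gene of the Mir196b precursor, between Hoxa9 and Hoxa10, had 13 counts over the GFP- and 22 over the GFP+ libraries of AKVPL, against 0 and 2 over those of AKVPSL, and did not pass the filter. That of Mir196a-1, in the Hoxb cluster, went the other way, with 8 counts, all in AKVPSL GFP+ libraries. Mir196a-2, in the Hoxc cluster, had 0 counts. Neither passed the filter.

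The comparison of GFP+ with GFP- cells asks what differs between Lgr5-expressing tumour cells and the rest. In AKVPL, 1 of the 28 tested Hox genes was higher in GFP+ and 14 were lower, against 22.6% and 16.5% of all genes (39.1% in either direction), and the median log2 difference was -0.41 beside 0.14 for all genes (-0.96 without AKVPL GFP+ replicate 4). The fractions did not overlap in 1 Hox gene that was higher and 11 that were lower, against 24.7% and 16.5% of all genes. With the replicate number as a block 2 were higher, as Hoxa10 joined (0.40, adjusted p = 0.00745). In AKVPSL, where Hoxb13 had no count, 4 of 27 were higher and 12 lower, against 22.4% and 24.6% of all genes (47.0% in either direction), with medians of -0.68 and -0.01. The fractions did not overlap in 4 and 11 genes, against 19.5% and 19.6%. With the block 7 were higher, as Hoxa10 (0.51, adjusted p = 0.00404), Hoxa13 (0.75, adjusted p = 0.0271) and Hoxb6 (0.30, adjusted p = 0.0386) joined.

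The Hoxc and Hoxd clusters account for 8 of the 14 lower genes in AKVPL and 7 of the 12 in AKVPSL. All 5 tested Hoxc genes and all 3 tested Hoxd genes were lower in GFP+ in AKVPL, and 4 of 5 and 3 of 3 in AKVPSL. The 18 genes of both clusters summed to 6.85, 4.76, 6.04 and 3.99 RPKM in AKVPL GFP- and 0.408, 0.297, 0.716 and 0.609 RPKM in AKVPL GFP+. In AKVPSL they summed to 2.62, 2.57, 2.06 and 2.11 RPKM in GFP- and 0.229, 0.311, 0.163 and 0.608 RPKM in GFP+. No GFP+ library of either genotype reached any GFP- library.

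Hoxc8, a thoracic gene, was at 4.89, 3.09, 3.82 and 1.86 CPM in AKVPL GFP- and 0.374, 0.278, 0.586 and 0.720 CPM in AKVPL GFP+ (-2.87 ± 0.40, adjusted p = 2.42e-05). In AKVPSL it fell by 3.63 ± 0.49 (adjusted p = 1.89e-05). Hoxc9, the group 9 paralog with a role in motor neurons of the trunk, had 138 counts in AKVPL GFP- and 7 in GFP+ (-4.60 ± 0.56, adjusted p = 6.62e-06), and in AKVPSL the difference was -3.85 ± 0.60. Hoxd8, a trunk gene, was at 5.35, 3.05, 4.88 and 2.29 CPM in AKVPL GFP- and 0.287, 0.371, 0.469 and 0.665 CPM in GFP+ (-3.18 ± 0.38, adjusted p = 5.67e-06), and fell by 2.41 ± 0.39 in AKVPSL. The others were low: Hoxc5 had 69 counts in AKVPL GFP- and 2 in GFP+ (43.5-fold, counting interval 11.6 to 366), and Hoxd4 26 in AKVPSL GFP- and 1 in GFP+ (32.8-fold, 5.38 to 1344).

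Fibroblast markers moved the same way in the same libraries. Of the 15, 13 were lower in GFP+ in AKVPL and 14 in AKVPSL, and their sums were 4368 to 9369 CPM against 552 to 1140 CPM in AKVPL and 1408 to 2855 CPM against 206 to 1043 CPM in AKVPSL. Smooth muscle markers were lower for 6 of 7 in both genotypes. Leukocyte markers were lower for 10 of 12 tested in AKVPL and 12 of 12 in AKVPSL, and those of endothelium for 10 and 8 of 10. None of these sums was at 0 in any group, and the neural list stood at 7.16 to 21.9 CPM, with Elavl4 and Sox10 at 8 and 34 counts in all. Their part in the Hoxc and Hoxd difference was not tested. In bulk samples fewer cells of a type and less RNA per cell cannot be told apart. The Hoxc and Hoxd genes that fell between genotypes in GFP- cells did so where 11 of 15 fibroblast markers also fell, with medians over all tested genes of -1.33 (Hoxc), -1.03 (Hoxd) and -1.22 (fibroblast).

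**Figure D4:**
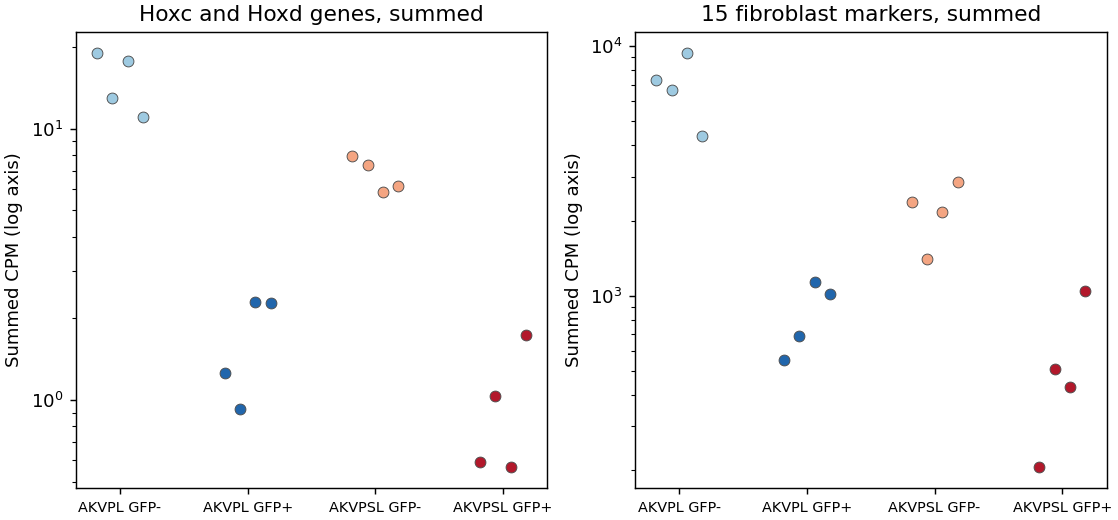
Summed CPM of the 18 Hoxc and Hoxd genes (left) and of 15 fibroblast markers (right) in each library, on log axes, by group. On both sides the GFP- libraries of a genotype lie above all its GFP+ libraries, at 5.85 to 7.93 against 0.566 to 1.73 CPM for the Hox genes of AKVPSL.

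Hoxb2 was lower in GFP+ cells of both genotypes, like the Hoxc and Hoxd genes. Of the other Hoxb genes, Hoxb3, Hoxb7 and Hoxb8 were lower in AKVPL but not in AKVPSL. It was at 6.55, 5.55, 6.14 and 2.88 CPM in AKVPL GFP- and 0.172, 0.124, 0.390 and 0.665 CPM in AKVPL GFP+. The fall was -4.10 ± 0.44 in AKVPL (adjusted p = 2.02e-06) and -2.73 ± 0.44 in AKVPSL (adjusted p = 9.14e-05). Fibroblast markers moved the same way here too, and their part was not tested. The anterior Hoxa genes were also lower in GFP+ cells, by less: Hoxa3 by 0.73 ± 0.26 and 1.31 ± 0.28 and Hoxa4 by 0.48 ± 0.18 and 0.78 ± 0.19 in AKVPL and AKVPSL, and Hoxa2 (1.19 ± 0.39) and Hoxa5 (1.25 ± 0.26) in AKVPSL. In AKVPL the call of Hoxa3 was lost without any 1 of 4 libraries and that of Hoxa4 without any 1 of 5. The genes with the highest mean RPKM of each genotype differed little with the sort. Log2 differences were 0.27 ± 0.33 for Hoxa9 in AKVPL and 0.31 ± 0.15 for Hoxb6 in AKVPSL, neither past the threshold (Hoxb6 with the block, as above).

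**Figure D5:**
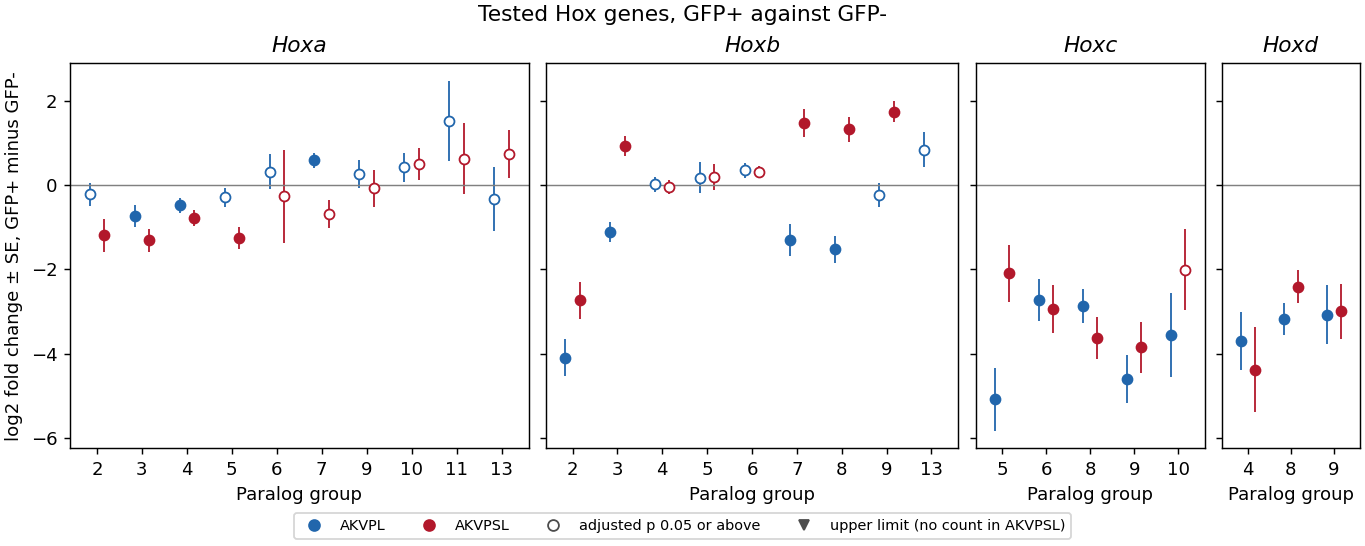
Log2 fold change ± SE (edgeR, GFP+ minus GFP-) of tested Hox genes by cluster and paralog group, in AKVPL (blue) and AKVPSL (red); open circles did not pass an adjusted p of 0.05. Hoxc and Hoxd genes lie between -5.08 and -2.01 in both genotypes, while Hoxb3, Hoxb7 and Hoxb8 lie below 0 in AKVPL and above 0 in AKVPSL.

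Hoxb3, Hoxb7, Hoxb8 and Hoxb9 responded to the sort differently in the 2 genotypes. Hoxb8 was at 2.87, 1.47, 2.42 and 3.22 CPM in AKVPL GFP- and 1.03, 0.834, 0.312 and 1.27 CPM in AKVPL GFP+, and so was lower in GFP+ (-1.52 ± 0.32, adjusted p = 0.00112). In AKVPSL it was at 2.26, 2.91, 3.32 and 3.22 CPM in GFP- and 7.50, 5.82, 7.26 and 8.67 CPM in GFP+, and so was higher in GFP+ (1.32 ± 0.29, adjusted p = 0.00113). Neither pair of groups overlapped, and the GFP- levels of the 2 genotypes did. Hoxb7 fell by 1.30 ± 0.38 in AKVPL and rose by 1.47 ± 0.33 in AKVPSL; without AKVPL GFP- replicate 1 its AKVPL call was lost. Hoxb3 fell by 1.11 ± 0.24 and rose by 0.93 ± 0.23. Hoxb9 differed by -0.23 ± 0.28 in AKVPL (adjusted p = 0.544) and rose by 1.74 ± 0.25 in AKVPSL (adjusted p = 2.96e-05).

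The difference of these sort effects was tested itself. Of 27 Hox genes, 4 had a higher sort effect in AKVPSL and 1 a lower one, against 7.02% and 13.7% of all genes (20.8% in either direction), and the median was -0.04 beside -0.10. The 4 were Hoxb8 (2.84 ± 0.43, adjusted p = 0.000270), Hoxb7 (2.77 ± 0.50, adjusted p = 0.00116), Hoxb3 (2.04 ± 0.34, adjusted p = 0.000538) and Hoxb9 (1.97 ± 0.37, adjusted p = 0.00159). Hoxb4, Hoxb5 and Hoxb6, which lie between Hoxb3 and Hoxb7, had differences of -0.06 ± 0.24, 0.01 ± 0.49 and -0.04 ± 0.23. Hoxa7 was the lower one (-1.27 ± 0.38, adjusted p = 0.0238): it was higher in GFP+ in AKVPL (0.59 ± 0.18, adjusted p = 0.0139) and at -0.68 ± 0.33 in AKVPSL. The Hoxa7 sort call in AKVPL was lost when libraries were scaled on 20 epithelial genes (0.38, adjusted p = 0.224), and so was its difference (-0.98, adjusted p = 0.124). These comparisons share libraries with those between the genotypes above.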

How the data were processed

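RNA was measured in 16 libraries of sorted mouse tumour cells, 4 in each of 4 groups taken from the sample titles. The authors aligned reads with GSNAP to GRCm38, per the submitters' processing notes, with no version given. Per the file headers, the deposited tables give for each gene a count of uniquely aligned reads and a value in RPKM adjusted by a size factor. The 24 replicate pairs each differed by more than counting noise (ratio of chi-square to its degrees of freedom 9.05 to 73.6). Of 36528 identifiers, 31049 (85.0%) matched a RefSeq symbol.

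From the counts, edgeR 4.0.16 (R 4.3.3) with TMM scaling and a group-means model over all libraries gave 5 contrasts over 18072 genes that passed filterByExpr, tested on simulated data with 200 changed genes. A group-wide count of 0 was bounded at 3 counts, with 95% intervals. DESeq2 1.42.0, limma 3.58.1 on log2 RPKM plus 1 or 0.1, other scalings and filters, a replicate block and the removal of each library were alternatives. Same-numbered GFP+ and GFP- libraries deviated together (correlation 0.131 to 0.256 in AKVPL and 0.103 to 0.366 in AKVPSL). In AKVPL all values between different numbers were lower, at most 0.127, by a narrow margin for replicate 4 (0.131). Pairing by number would give this, but no label states it. In AKVPSL values between different numbers reached 0.38 (GFP+ replicate 3 with GFP- replicate 4), so the numbers do not settle the pairing there. Across the genotypes same-numbered libraries correlated at -0.039 to 0.202 in GFP- and at -0.021 to 0.279 in GFP+ cells. Different numbers reached 0.146 and 0.214, so the numbers do not settle a pairing across genotypes. Named genes were all members with a count, with full statistics for at most 10 per contrast, taking the largest changes first, and up to 4 called genes of each list; statistics beyond that (Hoxa13, Hoxb2, Hoxb3 and Hoxb7 between genotypes) were added after their values were seen. The members, lists and markers were chosen with earlier results of these data known. Some genes and sequences are not reported here.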

Additional observations from a re-analysis of the deposited data

Results flagged for a closer look

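The sort effect (GFP+ minus GFP-) differed between the genotypes in 5 Hox genes by the edgeR test of the difference itself. Given as the log2 effect in AKVPSL minus that in AKVPL, the values were 2.84 for Hoxb8, 2.77 for Hoxb7, 2.04 for Hoxb3, 1.97 for Hoxb9 and -1.27 for Hoxa7. In Hoxb8 the 4 GFP+ libraries of AKVPL lay below all 4 of its GFP- libraries, and the 4 GFP+ libraries of AKVPSL above all 4 of theirs.

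Hoxb3 in AKVPL GFP+ replicate 3 stood apart from its group, at 2.34 CPM against 1.61 to 1.72 CPM in the other 3 libraries. It was the 1 such library in 84 groups of 4 with at least 40 counts, and chance sets apart about 1 in 20 groups.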

How the results depend on the processing

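Gene counts that moved by over 1.5 times were these. In the sort in AKVPL, 1 Hox gene was higher; the count was 0 under epithelial scaling and with a mean CPM of at least 1, 2 with the replicate block and 2 with limma on RPKM plus 1, and 0 to 2 when a library was left out (0 without AKVPL GFP+ replicate 1 or 4, 2 without AKVPL GFP- replicate 1 or 3), while 14 were lower and 9 with a mean CPM of at least 1. In the sort in AKVPSL, 4 were higher and 7 with the block. For the difference of sort effects, 4 were higher and 7 with limma on RPKM plus 1; 1 was lower, and the count was 0 under epithelial scaling, 2 with the block, 0 with limma on RPKM plus 0.1, and 0 to 2 when a library was left out (0 without AKVPSL GFP- replicate 2, 2 without AKVPL GFP- replicate 1, AKVPL GFP+ replicate 2 or AKVPSL GFP- replicate 4). The difference of Hoxd4 went from -0.68 to 0.25 with limma on RPKM plus 1. The cause was not tested. Between genotypes the numbers of libraries did not settle a pairing, and the block left 1 call of 19 in GFP+ cells lost (Hoxc6, adjusted p = 0.0541).

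Of the 19 calls between genotypes in GFP+ cells, 2 genes lost theirs in any of the 10 other settings (Hoxc6 and Hoxc8) and 1 when a library was left out (Hoxc6). In GFP- cells 1 of 21 lost its call in another setting and 5 when a library was left out. Depth limits Hoxa6, Hoxb13, Hoxc and Hoxd genes, with 3 or fewer counts in some groups. The median over the tested Hox genes in the sort in AKVPSL went from -0.68 to -0.09 with limma on RPKM plus 1 and to -0.26 with the compared groups alone, and in the genotype comparison in GFP- from -1.20 to -0.24 with limma on RPKM plus 1; without the low-count filter that of the sort in AKVPL was -1.01. That of the difference of sort effects ran from -0.34 to 0.15 when a library was left out.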
